A study of Bos taurus with 6 samples.

Results

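The circRNAs described here come from the PNP locus on chromosome 10 of cattle. PNP codes for purine nucleoside phosphorylase, and next to it lies an unnamed gene, ENSBTAG00000037452. All circRNAs were taken whose annotated gene name was PNP or whose annotated identifier was ENSBTAG00000037452, which gave 10 of the 14274 circRNAs in the deposited table. The locus was selected on abundance: it holds the circRNA with the highest mean level over the 6 libraries. Its levels are therefore a description, with no test. The rule does not use the difference between ages, but the leading circRNA was already known to stand in the authors' list of circRNAs that differ by age, so the age tests below are no independent support for it.

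The libraries were made from subcutaneous adipose tissue of Qinchuan cattle, 3 from calves of 6 months and 3 from adults of 24 months. No genotype or treatment distinguished the groups, and the labels' protocols describe rRNA removal, a digestion of linear RNA with RNase R and strand-marked paired-end sequencing. They go on to name rRNA-depleted or circRNA samples as the input, so whether these libraries were digested is not certain. The tissue came from a slaughterhouse and was frozen. The labels do not say outright that the 3 samples of an age were separate animals, so p-values measure the spread between these samples.

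Purine nucleoside phosphorylase splits inosine and guanosine into a free base and ribose phosphate. The bases are then returned to nucleotides by salvage enzymes or oxidised to uric acid by xanthine oxidoreductase, the product of XDH. A circRNA is recognised by a read in which the end of a downstream exon (the donor) is joined to the beginning of an upstream exon (the acceptor), which is the reverse of the order in a messenger RNA. Such reads are called junction reads here.

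The libraries held 35616 to 47298 junction reads each, 237621 in all. At this depth a count of 0, if no read was seen, allows up to 3 reads, or 63.4 to 84.2 when scaled to 1000000 junction reads of the library (CPM). Nonzero counts began at 2, so a listed 0 may stand for 1 read, and the bound would then be higher. Circles of the 12 adipocyte marker genes summed to 102 to 142 reads in calves and 114 to 123 in adults, from 5 host genes, with CD36 (420 reads) and PPARG (257) leading. Of 3 adipocyte circRNAs tested, edgeR called 1 higher and 1 lower in adults, limma-voom called 2 and DESeq2 0. Among all 663 circRNAs tested, edgeR called 19.0%, limma-voom 14.9% and DESeq2 13.4%. ADIPOQ, the adiponectin gene, had 16 reads and PLIN1, FABP4 and LEP had no circRNA listed. Adult 2 stood apart with 679 reads of skeletal muscle genes against at most 3 elsewhere (7 of 12 genes read, MYH7 leading, ACTN2 and RYR1 not listed). Immune genes gave 2, 11 and 18 reads in calves and 57, 86 and 460 in adults, so every adult stood above every calf and adult 3 stood apart (3 of 12 genes read, ADGRE1 leading, PTPRC and CSF1R not listed). The place of adult 3 rested on ADGRE1, with 457 of its 460 reads. ITGAM had 13, 12 and 0 reads in adults 1 to 3, and CD163 had 0, 2 and 3. The 1 immune circRNA tested, ADGRE1 novel_circ_0012166, had 0 reads in each calf and 10, 14 and 28 in adults, and was higher in adults with edgeR (adjusted p = 0.00458), DESeq2 and limma-voom. Endothelial genes gave 43 to 79 reads per library, nerve genes at most 5 and epithelial genes 0. The part of these cell types in the results below was not tested, and each result is given without adult 2 or adult 3 where that changes a call. In bulk tissue, a change in the number of cells of a type and a change in RNA per cell cannot be told apart.

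PNP and ENSBTAG00000037452 lay on the minus strand in the same direction, with the unnamed gene upstream. The 10 circRNAs covered 15244 bases, from 26669054 to 26684298, in the coordinates of the authors' files; their genome build was not given in the sources used here, and lengths are end minus start. The exons of the 2 genes matched in length. Exon 2 measured 170 bases in PNP (26671776 to 26671946) and 170 in its neighbour (26684128 to 26684298), and exon 3 measured 104 and 104. Exon 4 measured 176 bases in each and exon 5 measured 191 in each. The intron between exons 4 and 5 was 91 bases long in each gene, that between exons 3 and 4 was 204 in PNP and 201 in the neighbour, and that between exons 2 and 3 was 1956 and 2204. Exons 3 were not themselves listed by the authors and were read from the gap between the listed introns, and the end of PNP exon 1 from the far edge of the intron before exon 2. Because the exon lengths match in order, the neighbour is called the upstream copy below. In RefSeq's order of genes (assembly ARS-UCD2.0), PNP lies between RNASE10 and an unnamed protein-coding gene, LOC790312. The table does not say whether that gene is ENSBTAG00000037452.

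**Figure D1:**
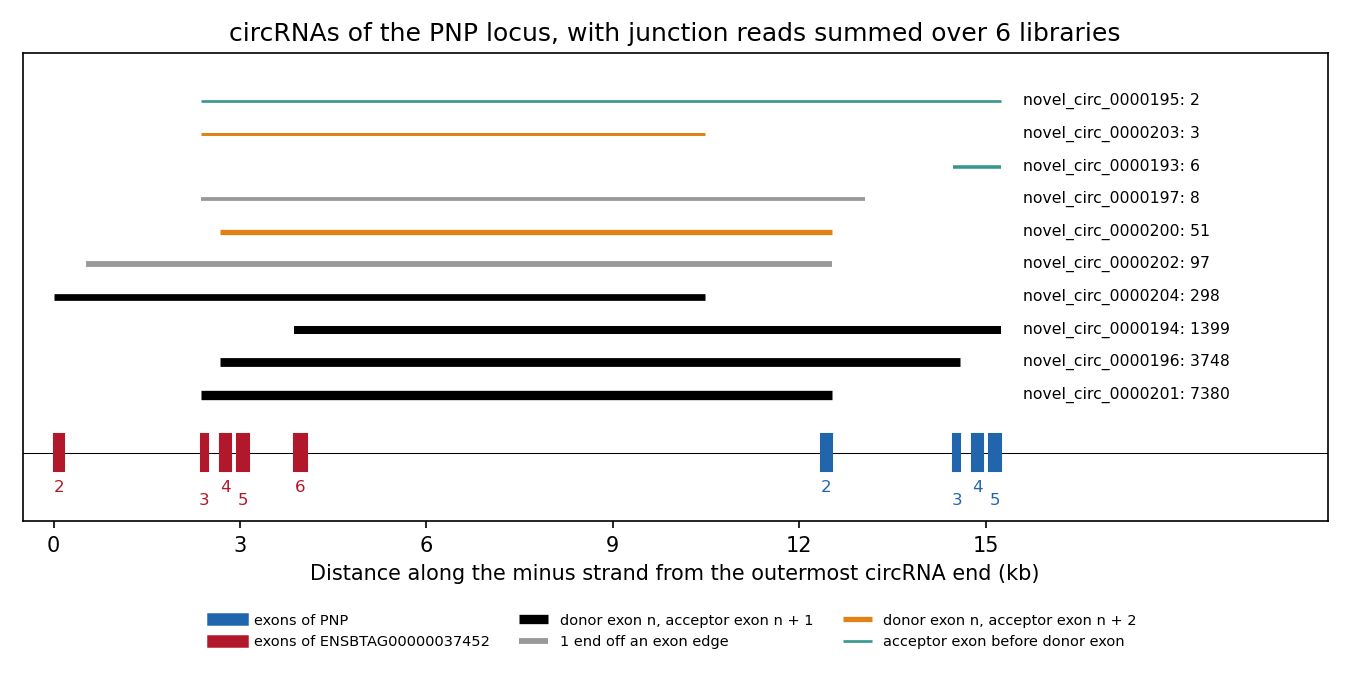
The 10 circRNAs of the locus (lines; width grows with the logarithm of the junction reads, printed at right) above the numbered exons of the upstream copy and of PNP (boxes), by distance in kb along the minus strand. The 4 black lines, with 7380, 3748, 1399 and 298 reads, run from an acceptor exon in the upstream copy to a donor exon in PNP that carries the preceding number (PNP exon 1 is not drawn).

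The abundant circRNAs all crossed from PNP to the upstream copy, and their joins followed the order of a messenger RNA when read by exon number. The most abundant, novel_circ_0000201 (26671776 to 26681924), joined the end of PNP exon 2 to the beginning of exon 3 of the upstream copy. The second, novel_circ_0000196 (26669716 to 26681619), joined PNP exon 3 to exon 4 of the copy. The third, novel_circ_0000194 (26669054 to 26680433), joined PNP exon 5 to exon 6 of the copy. The fourth, novel_circ_0000204 (26673819 to 26684298), joined the end of PNP exon 1 to exon 2 of the copy. The authors' annotation does not place this circRNA in 2 genes, and its end in PNP exon 1 was read from an intron edge. No circRNA joining exon 4 to exon 5 was listed.

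These 4 circRNAs held 12825 of the 12992 junction reads of the locus (98.71%). A further 2, novel_circ_0000200 (PNP exon 2 to exon 4 of the copy, 51 reads) and novel_circ_0000203 (exon 1 to exon 3, 3 reads), skipped 1 exon number and held 0.42% of the reads. An acceptor exon with a lower number than its donor, the usual form of a back-splice within 1 gene, occurred in 2 circRNAs, each from PNP exon 5 to an exon 3. Of these, novel_circ_0000193 lay within PNP (26669054 to 26669820, 6 reads) and novel_circ_0000195 ended in the upstream copy (2 reads). In the other 2, novel_circ_0000202 (97 reads) and novel_circ_0000197 (8 reads), 1 end lay off the exon edges.

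Within single genes the reverse order is largely set in advance, since a circRNA is defined by a donor downstream of its acceptor. Between genes the order is not set in this way, and elsewhere in the table it mostly ran forward, as in the locus. Of 1558 circRNAs outside the locus with their 2 ends at numbered exon edges of 1 gene, 0 joined an exon to the next number and 1557 (99.94%) joined it to the same or an earlier one. Ends at numbered exon edges of 2 different genes were found in 18 circRNAs outside the locus, and 12 of these (66.67%) joined an exon to the next number. Only 1 (5.56%) joined it to the same or an earlier one, so the forward order was not particular to this locus. Circles annotated to 2 or more genes numbered 142 in the series with 27920 junction reads, and the 7 of this locus held 45.4% of those reads.

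A join of exon 2 to exon 3 is also what the linear transcript of a single copy holds. Where tandem copies are alike in sequence, reads of such a join cannot be told apart from a back-splice between the copies by exon number alone. The sequences of the copies were not used here, and whether the junction reads come from circles or from linear RNA of 1 copy was not tested. The assignment of reads to PNP or to its neighbour is therefore uncertain for every circRNA of the locus, and "circRNA" below means the entry in the authors' table.

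The authors also list the features inside each circle. For all 10 circRNAs the spliced length equalled the sum of the features listed, and an intron was among them in all 10. For novel_circ_0000201 the span was 10148 bases and the listed features summed to 3557.

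The locus held 5.47% of all junction reads of the series. Calves 1 to 3 had 1742, 1887 and 1205 of these reads, and adults 1 to 3 had 2989, 3282 and 1887. As a share of the library this was 4.28 ± 0.778% in calves and 6.51 ± 1.62% in adults (SD, n = 3 per age). Calf 3 was lowest of the calves and adult 3 lowest of the adults, and adult 3 (4.72%) lay within the range of the calves (3.38% to 4.77%). Immune circRNAs, unlike the locus, had more reads in every adult than in every calf. ADGRE1 held most of these, with 2, 9 and 16 reads in calves and 44, 72 and 457 in adults. Adult 3 had the most immune reads, 457 of its 460 from ADGRE1, and the smallest locus share of the adults. A link between the 2 values was not tested. No test was made of this sum, since its members were picked with earlier results known.

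The leading circRNA, novel_circ_0000201, had 919, 993 and 696 reads in calves 1 to 3. It had 1748, 1923 and 1101 reads in adults 1 to 3. The ages did not overlap: the CPM was 19541.8 to 25092.9 in calves and 27545.7 to 46065.5 in adults. It ranked first in 5 of the 6 libraries and second in calf 3, where the circRNA of the heat-shock gene HSPA1A had 1580 reads. That circRNA had 560 reads in adult 3 and 69 to 269 in the other 4 libraries, so calf 3 and adult 3, the lowest of their ages for the locus, were the highest for it; its part in the locus values was not tested.

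The calves averaged 23109 ± 3096 CPM and the adults 38089 ± 9523 (SD over 3 libraries), a log2 change from calf to adult of 0.80 ± 0.30 (SE). It did not pass (adjusted p = 0.0832, edgeR's quasi-likelihood test with Benjamini-Hochberg adjustment over 663 circRNAs). It passed without adult 3 (log2 change 1.04, adjusted p = 0.0152), with DESeq2 (adjusted p = 0.00989), with limma-voom (0.0389) and without a filter on low counts (0.00518). In the authors' deposited table it was listed as higher in adults, at 1518.6 scaled reads against 874.6, with a log2 fold change of 0.79 and an adjusted p of 0.0265.

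The second circRNA, novel_circ_0000196, had 554, 591 and 354 reads in calves and 761, 918 and 570 in adults. Adult 3 (14260.7 CPM) lay below calves 1 and 2 (14885.3 and 14934.4 CPM), so the ages overlapped. The calves averaged 13253 ± 2870 CPM and the adults 17908 ± 3175 (SD over 3 libraries). The log2 change of 0.51 ± 0.29 (SE) did not pass (adjusted p = 0.247 with edgeR). The change was 0.31 without calf 3 (adjusted p = 0.449).

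The third, novel_circ_0000194, had 176, 190 and 131 reads in calves and 345, 349 and 208 in adults. Every adult stood above every calf, at 5203.9 to 9091.9 CPM against 3678.1 to 4801.3. The calves averaged 4403 ± 629 CPM and the adults 7225 ± 1949 (SD over 3 libraries). The log2 change of 0.79 ± 0.28 (SE) was close to that of the leading circRNA, and it did not pass (edgeR adjusted p = 0.0686). It passed without adult 3 (1.03, adjusted p = 0.0239), with DESeq2 (0.0328) and with limma-voom (0.0459).

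**Figure D2:**
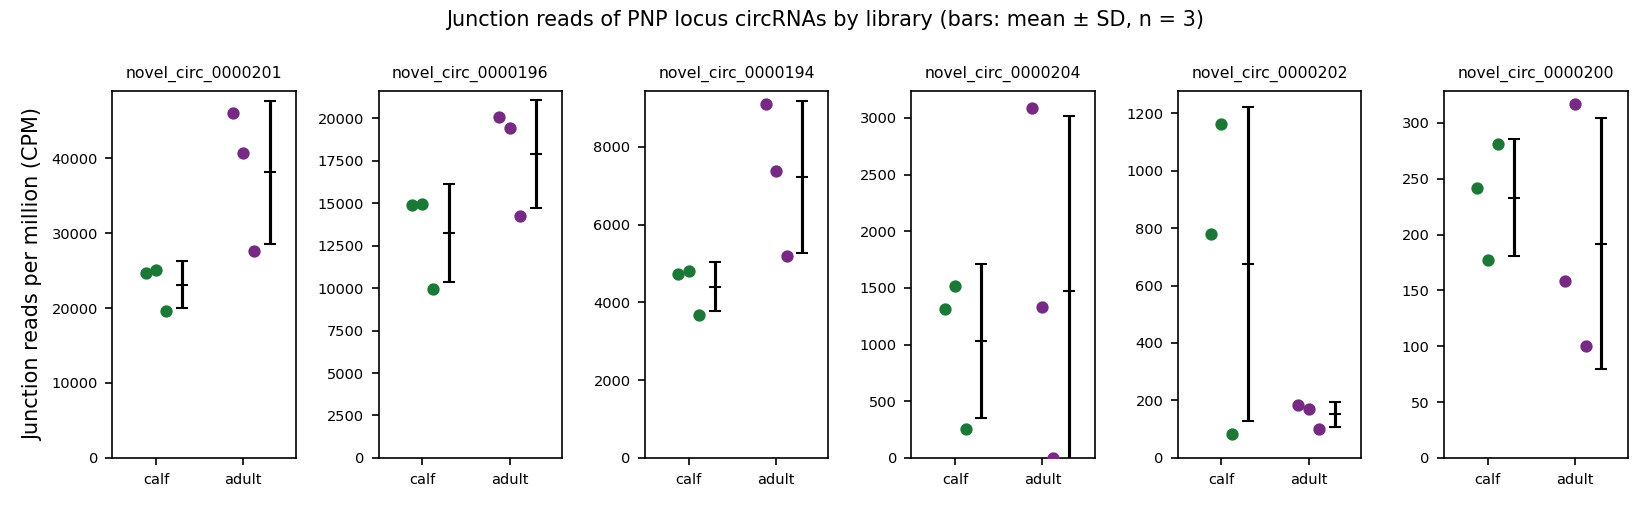
Junction reads scaled to 1000000 per library (CPM; each panel has its own axis from 0) of the 6 circRNAs with at least 20 reads, 1 point per library, with the mean ± SD beside the points (n = 3 per age; the lower bar of novel_circ_0000204 in adults is clipped at 0). The adults stand above the calves without overlap for novel_circ_0000201 and novel_circ_0000194, and calf 3 and adult 3 are the lowest of their age for the 3 abundant circRNAs.

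The fourth, novel_circ_0000204, was uneven within each age. It had 49, 60 and 9 reads in calves and 117, 63 and 0 in adults, so adult 3 had none among 39970 junction reads while adult 1 had the most. The calves averaged 1029 ± 679 CPM and the adults 1472 ± 1546 (SD over 3 libraries). The log2 change of 0.57 ± 0.93 (SE) did not pass (adjusted p = 0.706 with edgeR), and it turned to -0.49 without adult 1 (adjusted p = 0.832) and to -1.01 with limma-voom (0.618).

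These 4 were the members that passed the filter on low counts, and they are also the 4 whose acceptor number follows the donor number. Of the 4, 0 passed the edgeR test, against 126 of 663 circRNAs tested (19.0%; 57, or 8.60%, were higher and 69, or 10.4%, lower in adults). At an unadjusted p below 0.05 there were 2, against 215 of 663 (32.4%). DESeq2 called 2 of the 4, against 13.4% of all tested, and limma-voom 2, against 14.9%. Without adult 3 edgeR called 2 of 6 members tested, against 17.5% of all tested. Without a filter it called 2 of 10, novel_circ_0000201 as higher and novel_circ_0000202 as lower in adults. The share of all 14274 circRNAs, those with few reads included, was then 1.42%. All 4 had a log2 change above 0, with 0.00 as the median of all tested circRNAs and -0.58 to 0.56 as their quartiles. Adults lay wholly above calves for 2 of the 4, against 111 of 663 tested circRNAs (16.7%). In a fit that left out calf 3 and adult 3, chosen once the values had been seen, the 3 abundant circRNAs passed, all higher in adults (edgeR adjusted p = 0.00386, 0.0214 and 0.0114 for novel_circ_0000201, novel_circ_0000196 and novel_circ_0000194). In that fit 164 of 741 circRNAs passed (22.1%). Without adult 2, the library with muscle reads, the leading circRNA had a log2 change of 0.81 (adjusted p = 0.114).

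A less abundant circRNA ran the other way. Reads of novel_circ_0000202, which joins PNP exon 2 to a point inside the intron between exons 2 and 3 of the upstream copy (26671776 to 26683775), numbered 29, 46 and 3 in calves and 7, 8 and 4 in adults. Calves 1 and 2 stood above all adults and calf 3 below them, so that the calves averaged 675 ± 547 CPM and the adults 151 ± 45.0 (SD over 3 libraries). The filter left it out. It was lower in adults without a filter (log2 change -2.09 ± 0.52 SE, edgeR adjusted p = 0.00537), and did not pass with a mean of at least 10 counts as the filter (-2.12, adjusted p = 0.115). In fits without 1 library it passed the filter only through calves 1 and 2, so those fits are no support for a difference. Its adjusted p was 0.00505 without calf 3, the calf that ran the other way, and 0.186, 0.175 and 0.179 without adult 1, adult 2 and adult 3.

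Reads of novel_circ_0000200 were few in every library, 9, 7 and 10 in calves and 6, 15 and 4 in adults, and the ages overlapped. The remaining 4 circRNAs had 2 to 8 reads in all. Of these, novel_circ_0000197 was read in calves 1 and 3 (6 and 2 reads), novel_circ_0000193 in adults 1 and 2 (3 reads each), novel_circ_0000195 in adult 1 and novel_circ_0000203 in adult 2. At these counts no difference between ages was detectable.

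The order of the 3 abundant circRNAs was the same in all 6 libraries. The leading one held 52.62% to 57.76% of the locus reads in calves and 58.35% to 58.59% in adults. The 95% Wilson intervals, which cover counting error only, were 50.37% to 54.87% for calf 2, the lowest, and 56.90% to 60.27% for adult 2, the highest. Calf 3, at 57.76% (54.95% to 60.52%), was within counting error of the adults. The mean share was 58.47 ± 0.12% in adults and 54.38 ± 2.93% in calves, a difference of 4.09 percentage points (SD, n = 3 per age, exact permutation test, two-sided, p = 0.1, which is the lowest that 3 against 3 allows, and 0.2 after Benjamini-Hochberg adjustment over 2 such comparisons). The number of circRNAs of the locus read per library was 7.0 ± 1.73 in adults and 6.67 ± 0.58 in calves (exact permutation p = 1, adjusted p = 1).

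The leading and the third circRNA kept a nearly fixed proportion. Reads of novel_circ_0000194 over those of novel_circ_0000201 gave quotients between 0.188 and 0.192 in calves, and between 0.181 and 0.197 in adults. Reads of novel_circ_0000196 over those of novel_circ_0000201 varied more, from 0.509 to 0.603 in calves and from 0.435 to 0.518 in adults. Over the 6 libraries, Pearson's r of log2(CPM + 1) between the leading and the third circRNA was 0.997, and that between the leading and the second 0.936. With novel_circ_0000202 the leading circRNA had r = -0.114 and with novel_circ_0000200 r = -0.091. These are descriptions over 6 points that share the library totals.

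**Figure D3:**
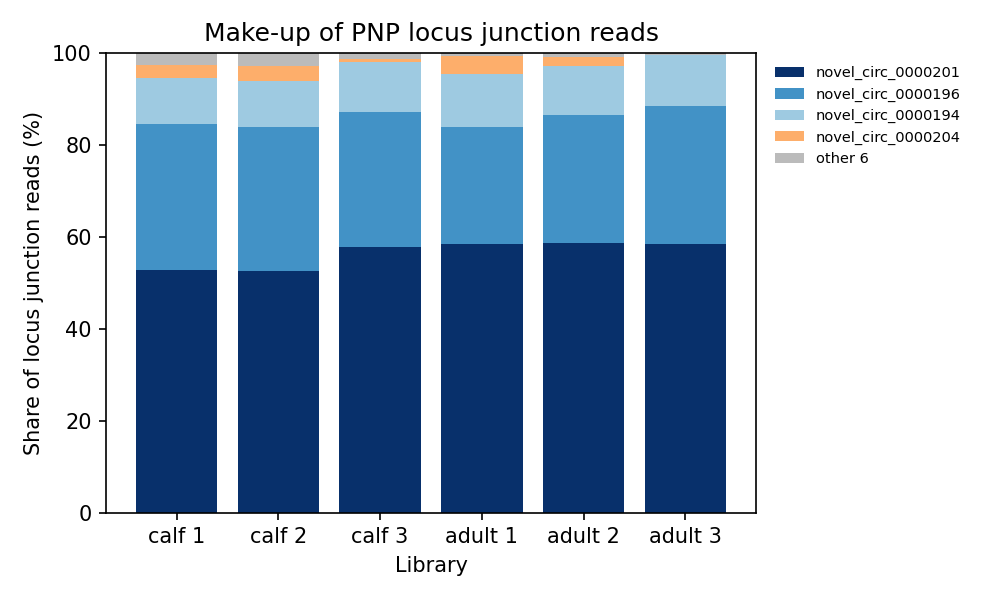
Share of the junction reads of the locus (%) held by each of the 4 leading circRNAs and by the other 6 together, in each library. The darkest segment, novel_circ_0000201, spans 52.62% to 58.59%, and novel_circ_0000204 is absent from adult 3.

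The authors also list, for each circRNA, non-junction reads, a term the sources used here do not define. For novel_circ_0000201 they numbered 932, 929 and 798 in calves and 1530, 1672 and 1126 in adults, so that they too were higher in every adult than in every calf. Junction reads were about as many as non-junction reads, with ratios of 0.986, 1.069 and 0.872 in calves and 1.142, 1.150 and 0.978 in adults. The mean ratio was 0.976 ± 0.0988 in calves and 1.09 ± 0.0974 in adults (SD, n = 3 per age). Among 1070 circRNAs that every library read and that averaged 10 or more non-junction reads, it ranked 36 by mean log2 ratio, and the median ratio of all 1070 was 0.051 to 0.096 per library.

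Among the 3 abundant circRNAs, the ratio was lower for the second and lowest for the third. It was 0.239 to 0.389 for novel_circ_0000196, whose non-junction reads numbered 1085 to 2634, and 0.053 to 0.1 for novel_circ_0000194, with 1696 to 4372. For novel_circ_0000204, at the beginning of the gene, non-junction reads numbered only 60 to 178 in the 5 libraries that read it, and its ratio ran from 0.150 in calf 3 to 1.918 in adult 1. Among the members read in every library, the lowest ratios were those of novel_circ_0000200 (0.004 to 0.013) and novel_circ_0000202 (0.003 to 0.047). These have the same donor as the leading circRNA. The non-junction counts of novel_circ_0000200 and novel_circ_0000201 differed by at most 3, while novel_circ_0000200 and novel_circ_0000196, which share their other end, had 932 and 2317 in calf 1. How these reads were assigned to overlapping circles is unknown, so the ratios may not be independent of each other, and the labels do not say how much linear RNA was left in the libraries.

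**Figure D4:**
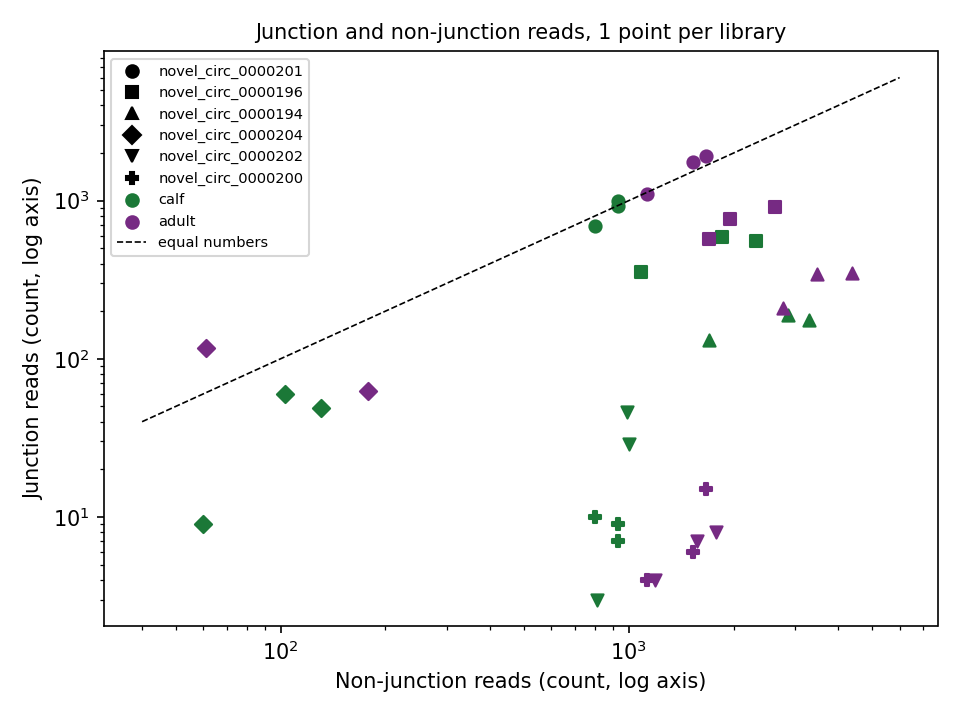
Junction reads against non-junction reads (counts, log axes) for the 6 circRNAs with at least 20 reads, 1 point per library in which the circRNA was read, coloured by age; the dashed line marks equal numbers. Points of novel_circ_0000201 lie along the line, with ratios of 0.872 to 1.150, and those of novel_circ_0000196 and novel_circ_0000194 lie below it.

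The ratio of the leading circRNA did not pass between the ages. With library medians set to 0, its log2 ratio differed by 0.06 ± 0.47 (SE, adult minus calf; limma adjusted p = 0.966), where its junction reads alone differed by 0.80 on the log2 scale. Of the 5 members tested 0 passed, against 1 of 1070 circRNAs (0.0935%), and 1 had an unadjusted p below 0.05, against 148 of 1070 (13.8%). That was novel_circ_0000202, with a log2 difference of -2.13 ± 0.74 (SE, limma adjusted p = 0.201). It passed without calf 3, the calf with the fewest of its reads (-3.30, limma adjusted p = 0.000222), where 35 of 1181 circRNAs passed. Leaving out the calf that ran the other way makes that fit no support for a difference. Without 1 of the other libraries its limma adjusted p was 0.25 to 0.568.

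Circles of other genes lay sparsely around the locus. Within 1000000 bases, 7 circRNAs that do not overlap it had 121 reads in all, from METTL3, SUPT16H, HNRPC and an RNase P RNA gene. The HNRPC circRNA novel_circ_0000190, from a gene of an RNA-binding protein of the nucleus, was the only one of them tested. It had 16, 15 and 11 reads in calves and 9, 17 and 11 in adults (log2 change -0.27 ± 0.38 SE, edgeR adjusted p = 0.663).

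Over the locus itself lay 3 circRNAs on the plus strand with no annotated gene. Reads of novel_circ_0000198 (26671389 to 26683740) and novel_circ_0000199 (26671442 to 26683793) were identical, 3, 6 and 6 in adults 1 to 3 and 0 in each calf. Each spanned 12351 bases, which is 1 base less than the distance of 12352 between the starts of exon 2 in PNP and in the upstream copy. Exons 3, 4 and 5 of the genes lay 12104, 12107 and 12107 bases apart. The third, novel_circ_0000192, had 2 reads in calf 3.

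The other genes of purine metabolism gave far fewer junction reads than the locus, which was itself chosen for its abundance. From 39 genes of purine salvage and breakdown, 13 gave 49 circRNAs with 608 reads, of which XDH, the gene of xanthine oxidoreductase, held 377 and AOX1, an aldehyde oxidase gene, 159. HPRT1, whose enzyme returns hypoxanthine and guanine to nucleotides, had 7 reads, and ADA and ADK had no circRNA listed. Of 3 circRNAs tested 0 passed with edgeR, DESeq2 or limma-voom, where 19.0%, 13.4% and 14.9% of all 663 tested passed. At an unadjusted edgeR p below 0.05 there was 1, against 215 of 663 (32.4%). That was the XDH circRNA novel_circ_0000836, with 6, 14 and 28 reads in calves and 51, 63 and 15 in adults (log2 change 1.34 ± 0.55 SE, edgeR adjusted p = 0.11). The other two had log2 changes of -0.38 (XDH novel_circ_0000837, adjusted p = 0.619) and 0.86 (AOX1 novel_circ_0009432, 0.248). Purine synthesis from ribose phosphate had 3 of 18 genes read, with 109 reads, of which GMPS, the GMP synthetase gene, held 70. Nucleoside transport and adenosine signalling had 6 of 23 genes read, with 101 reads. None of their circRNAs was frequent enough to be tested.

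The circRNAs most like novel_circ_0000201 over the 6 libraries, by Pearson's r of log2(CPM + 1) among 1187 read in all libraries, came from 5 other loci. They were a circRNA across USF2, HAMP, MAG and LSR (r = 0.960), and those of BTBD3 (0.960), ARGLU1 (0.941), XDH (novel_circ_0000842, 0.939) and LNX1 (0.934). The median r over the 1187 was -0.089, and 1.6% of them had an r above 0.9. The BTBD3 circRNA, novel_circ_0002219, had 14, 16 and 10 reads in calves and 37, 50 and 14 in adults. The XDH circRNA had 7, 8 and 6 reads in calves and 13, 20 and 10 in adults. Their adult 3, like that of the leading circRNA, was the lowest of the adults, a likeness to be looked for in circRNAs picked by r.

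By mean CPM over the 6 libraries, novel_circ_0000201 stood first with 30599, novel_circ_0000196 second with 15581 and novel_circ_0000194 eleventh of the series with 5814. The next outside the locus was the circRNA of BTNL9, a butyrophilin-like gene, with 14942, and its difference from novel_circ_0000196 was smaller than the SD of that circRNA within either age. After it came that of HSPA1A with 12529, which in calf 3 exceeded every circRNA of the locus.

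In the authors' deposited gene ontology table, PNP appeared in 36 of 1682 terms and ENSBTAG00000037452 in 0. Of those 36 terms, the broad term single-organism metabolic process alone passed in the authors' deposited table (25 of 58 host genes against 2935 of 18393 background genes, corrected p = 0.0271). The term for purine-nucleoside phosphorylase activity held 1 of 58 listed host genes against 2 of 18393 background genes, with a raw p of 0.00362 and a corrected p of 1 in that table.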

How the data were processed

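Back-splice junction read counts, as deposited by the authors, were taken for 14274 circRNAs in 6 libraries; a second set of values headed TPM was, from the values, CPM as deposited, without a length term. Positions, annotated genes and non-junction read counts came from the authors' deposited annotation table. The authors' deposited comparison gives a scaled signal per age, a log2 fold change and p-values. Trim Galore, Cufflinks, TopHat and TopHat2 (2.0.14) are named in the submitters' processing notes (circRNA caller and build: not given in the sources used here). Members and gene lists were chosen with earlier results of these data known.

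Counts were tested with edgeR 4.0.16 (R 4.3.3; filterByExpr, TMM factors 0.9641 to 1.03, quasi-likelihood test, 663 circRNAs with 57.9% of the reads), with adjustment over all of them and a threshold of 0.05. DESeq2 1.42.0 and limma-voom (limma 3.58.1) were alternatives. Ratios were tested with limma on log2((junction + 0.5)/(non-junction + 0.5)) over 1070 circRNAs. The fits were tested on simulated data. Members read in all libraries are given in full, the others by counts, and circRNAs of similar pattern are the 5 with the highest r. The members with under 20 reads and the XDH and AOX1 circRNAs were picked for naming once their values had been seen. There were 0 unassigned value columns.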

Additional observations from a re-analysis of the deposited data

How the results depend on the processing

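The number of members that passed between the ages was 0 in the edgeR fit of junction reads. It was 2 with DESeq2, 2 with no filter on low counts, 2 by limma-voom, and 0 to 2 when 1 library was left out (1 without calf 3, namely novel_circ_0000202, and 2 without adult 3). It was 4 without calf 3 and adult 3 together, novel_circ_0000202 among them, where 164 of 741 circRNAs passed; that alternative was chosen after the data were seen. The leading circRNA, novel_circ_0000201, kept its direction in each fit, with a log2 change of 0.66 to 1.04 when 1 library was left out. It passed with DESeq2 (0.80), limma-voom (0.78), no filter (0.77) and without calf 3 and adult 3 (0.88). The number passing among all circRNAs tested was 126, and 202 without a filter and 71 to 138 when 1 library was left out (71, 74, 82 and 81 without calf 1, calf 2, adult 1 and adult 2); DESeq2 called 89 and limma-voom 99. novel_circ_0000204 ran from -0.49 (without adult 1) to 1.2 (without adult 3) and was -1.01 with limma-voom. With the replicate number of the labels as a block, 56 of all circRNAs passed, and 1 member, novel_circ_0000201 (0.78, edgeR adjusted p = 0.0241). Same-numbered libraries had correlations of -0.05, 0.074 and 0.02 in their deviations from the group means. Adult 1 correlated best with calf 3 (0.036) and adult 3 with calf 1 (0.043). The numbers were therefore not taken to pair the samples. For the ratio, 0 members passed, and 0 to 1 when 1 library was left out and 1 without calf 3 and adult 3. Over all circRNAs the ratio test called 1, and 2 with a pseudocount of 1, 0 without centring, 0 without a minimum of non-junction reads, 0 with the replicate block, 0 to 35 when 1 library was left out (35 without calf 3) and 19 without calf 3 and adult 3. The ratio of novel_circ_0000201 turned to -0.20 without calf 3 and adult 3 and ran from -0.15 to 0.27 when 1 library was left out. The number of members read per library differed by 0.33 between the ages and by -0.17 (without adult 1 or adult 2) to 1.33 (without adult 3) when 1 library was left out. The cause was not tested in these cases. Depth limits what can be said of the 4 circRNAs with 2 to 8 reads.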
